A study of Homo sapiens with 9 samples.

Results

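The genes described here are 10 calcium/calmodulin-dependent protein kinase (CaM kinase) genes and CAMK2 inhibitor genes, taken by gene symbol from the 22295 entries of a table of gene expression. They are CAMK2A, CAMK2B, CAMK2D and CAMK2G, which encode the subunits of CaM kinase II, its endogenous inhibitors CAMK2N1 and CAMK2N2, the kinases CAMK1, CAMK1D and CAMK4, and CAMKK2, an upstream kinase. All 10 symbols were found. RNA-seq had been performed on U251, an established human glioblastoma cell line, infected with lentivirus carrying a short hairpin RNA. The groups were sh-Luci-3d, with a control hairpin against luciferase and RNA taken at 3 days post infection (dpi), sh-Ptbp1-3d, with a hairpin against PTBP1 at 3 dpi, and sh-Ptbp1-7d, with the same hairpin at 7 dpi, with 3 libraries each and 9 in all. In the reprogramming scheme of the study, cells received a neuronal induction medium with forskolin and dorsomorphin from 2 dpi, but the labels name only the infection and its duration, so its use for the sequenced cells is not certain. No control library of 7 dpi was analysed here, so that in both comparisons with sh-Ptbp1-7d the knockdown, the additional days and any longer time in this medium cannot be told apart. All libraries come from 1 cell line, and the labels do not say whether the libraries of a group came from separate cultures, so that the p-values may measure technical spread only.

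When calcium enters a cell it binds calmodulin, and calcium-loaded calmodulin opens the autoinhibited CaM kinases. CaM kinase II is a ring of subunits that can phosphorylate one another and stay active after the calcium signal has ended. Its alpha and beta subunits are abundant in neurons, where the kinase acts at synapses, while the delta and gamma subunits are found in many tissues. CAMK2N1 and CAMK2N2 are small proteins that bind and block active CaM kinase II. CaM kinase I and IV require in addition to be phosphorylated by a CaM kinase kinase, and CaM kinase IV acts on transcription factors such as CREB. PTBP1 is an RNA-binding repressor of neuronal exons, among them one in PTBP2, its neuronal paralog.

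The values are FPKM, the fragments of a gene divided by its transcript length and by all mapped fragments of the library, so levels of different genes are compared per length. They are sums over the transcripts of a gene and do not resolve the splice forms of these kinases. Fold changes are log2 differences of FPKM + 0.1 from limma, a scale that makes changes of weakly expressed genes look smaller, and the adjusted p (FDR, Benjamini-Hochberg) is over all 15551 genes that averaged at least 0.1 FPKM. A gene was called when it changed more than 2-fold with an FDR under 0.05 where the 2 groups of 3 dpi were compared, or under 0.01 where sh-Ptbp1-7d was compared with either of them. CAMK2A fell below the filter, so 9 of the 10 genes were tested. For 3 libraries against 3, the smallest two-sided p of an exact permutation test is 0.1.

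PTBP1, the targeted gene, was lower in the libraries labelled with its hairpin. It was at 110.7, 111.9 and 124.5 FPKM in sh-Luci-3d, at 66.2, 64.4 and 61.0 in those of sh-Ptbp1-3d and at 49.7, 50.7 and 51.0 in those of sh-Ptbp1-7d, and PTBP2 rose from a mean of 6.54 to 17.8 and 27.1 FPKM. Of the glioma markers VIM (1094 to 4488 FPKM), CD44 and SOX2 were high in all libraries, and the astrocyte markers GFAP and S100B were low. The 6 glioma and astroglial markers together summed to 4418 to 4836 FPKM at 3 dpi and 1352 to 1477 FPKM at 7 dpi, the 7 neuronal markers to 270.7 to 361.7 and 163.8 to 170.2 FPKM, and the 4 blood and immune markers to 10.2 to 11.4 and 16.1 to 19.0 FPKM. The 3 muscle markers, listed because muscle is rich in CAMK2 subunits, stayed at or below 0.348 FPKM. Each sum was carried mostly by 1 gene. VIM was at means of 4381 and 1169 FPKM in the sh-Ptbp1 groups of 3 and 7 dpi, TUBB3 at 316.9 and 118.2 FPKM and CD68 at 10.5 and 16.3 FPKM. Other markers of the same lists lay the other way or near one level, with SOX2 at 124.5 and 144.8 FPKM, S100B at 0.115 and 0.797, MAP2 at 20.3 and 38.9, SNAP25 at 2.68 and 4.32, SYT1 at 6.05 and 5.63, and PTPRC at 0.0143 and 0.0182 FPKM. The part of these markers in the results was not tested. In bulk RNA, fewer cells of a type and less RNA per cell cannot be told apart.

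A pair of libraries of 3 dpi stood apart. In sh-Ptbp1-3d replicate 3, STMN2 was at 11.5 FPKM and NEUROD6 at 6.03 FPKM, both listed at 0 in the other 8 libraries, and the 3 excitatory neuron markers summed to 7.47 FPKM against at most 0.1205 elsewhere. In sh-Luci-3d replicate 3, 9.56% of 11993 genes lay more than 1.5-fold from the other 2 libraries of its group, against 2.03% to 4.06% in the other libraries. Results that rest on them are given with and without these libraries.

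The promoters of the pair of CaM kinase II subunits known from neurons are shown. The transcript of CAMK2B rose in sh-Ptbp1-7d from low values at 3 dpi, and that of CAMK2A was listed at 0 in sh-Ptbp1-7d. The sequences are from RefSeq (GRCh38.p14), the 250 bases before the listed transcript start, 5′ to 3′ on the minus strand, at chr7:44325595-44325844 for CAMK2B and chr5:150289774-150290023 for CAMK2A. Capitals mark GGGCGG (GC box) or TGACG (a partial cAMP response element) on either strand, with overlapping matches joined.
CAMK2B: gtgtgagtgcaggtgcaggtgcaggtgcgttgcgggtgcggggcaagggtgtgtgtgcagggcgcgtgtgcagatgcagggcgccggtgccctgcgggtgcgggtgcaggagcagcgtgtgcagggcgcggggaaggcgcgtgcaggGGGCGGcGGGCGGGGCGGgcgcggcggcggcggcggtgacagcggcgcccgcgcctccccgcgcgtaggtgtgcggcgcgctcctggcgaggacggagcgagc
CAMK2A: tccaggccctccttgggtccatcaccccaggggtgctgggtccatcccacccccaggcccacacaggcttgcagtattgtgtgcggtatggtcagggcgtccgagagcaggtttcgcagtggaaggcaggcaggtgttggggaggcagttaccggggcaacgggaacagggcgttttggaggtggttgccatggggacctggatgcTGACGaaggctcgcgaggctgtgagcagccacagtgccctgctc
The CAMK2B window holds 37 CpG dinucleotides and 3 GC boxes, and 96.7% of the 35116 RefSeq windows hold no more CpG. The CAMK2A window holds 10 CpG, 0 GC boxes and 1 partial cAMP response element, and 49.7% of windows hold no more CpG. Over all windows GGGCGG occurred in 42.64%, TGACG in 21.22%, the full element TGACGTCA in 1.65% and the TATA box TATAAA in 10.72%. Of the 9 members with a window 6 held a GC box, 1 held TGACG, and 0 held TGACGTCA or TATAAA. A member counted when any of its windows held the letters, whereas the shares over all windows are per window. CAMK4 had more than 1 window and counted through the only one with GC boxes, which held 5. The CAMK2B and CAMK2A windows lie inside the extent of their gene in GENCODE 29, and the FPKM do not say which start was used. No entry was matched for CAMK2N1. These matches describe letters and not bound sites.

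Among the CaM kinase II subunits, CAMK2B rose strongly between 3 and 7 dpi while the sum of the 4 subunits stayed within the spread of its libraries. CAMK2B, the beta subunit, which binds actin and links the kinase to the cytoskeleton, lies on chromosome 7 from 44217150 to 44334577 (GRCh38). It was at 0, 0.0230 and 0.0301 FPKM in sh-Luci-3d, at 0.0867, 0.0407 and 0.423 in those of sh-Ptbp1-3d and at 2.29, 1.98 and 1.82 in those of sh-Ptbp1-7d. The groups did not overlap, and the highest value of 3 dpi was that of sh-Ptbp1-3d replicate 3, the library with the neuronal transcripts. The mean of sh-Ptbp1-7d, 2.03 ± 0.239 FPKM (SD, n = 3), was 11.1 times that of sh-Ptbp1-3d, and 31.9 times that of its other 2 libraries. On the log2 scale the rise was 3.15 (standard error 0.429, limma adjusted p = 0.00014), and 3.71 without sh-Ptbp1-3d replicate 3 (standard error 0.292, limma adjusted p = 1.11e-05). STMN2 and NEUROD6 were listed at 0 in all 3 sh-Ptbp1-7d libraries in which CAMK2B was high. With a pseudocount of 1 the log2 rise was 1.37 and with 0.01 it was 3.98, and CAMK2B was called under all 19 alternatives in which it was tested. The study chose CAMK2B as a candidate on these libraries, so its rise is not independent evidence.

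Against sh-Luci-3d, CAMK2B in sh-Ptbp1-7d was higher by 4.18 on the log2 scale (standard error 0.429, limma adjusted p = 1.74e-05), or by 1.57 and 6.43 with pseudocounts of 1 and 0.01. Between the groups of 3 dpi its log2 difference was 1.03 with a 95% interval of 0.09 to 1.98 (limma adjusted p = 0.655). Without sh-Ptbp1-3d replicate 3 this was 0.47, with an interval of -0.19 to 1.13 (limma adjusted p = 0.87). The 3 values of sh-Ptbp1-3d all lay above those of sh-Luci-3d, but 5 of these 6 values were below 0.1 FPKM.

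CAMK2A, the alpha subunit and the major form of forebrain neurons, on chromosome 5 from 150219491 to 150290291, was listed at 0 in 8 libraries and at 0.0212 FPKM in sh-Ptbp1-3d replicate 3. It thus appeared in the same library as STMN2 and NEUROD6 and in no library of 7 dpi.

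CAMK2D is the delta subunit and the main form of heart muscle. It was at 20.6, 23.8 and 14.8 FPKM in sh-Luci-3d, at 19.7, 19.9 and 19.2 in those of sh-Ptbp1-3d and at 17.9, 18.3 and 14.7 in those of sh-Ptbp1-7d. All sh-Ptbp1-7d values were below those of sh-Ptbp1-3d, while the range of sh-Luci-3d overlapped with both. The log2 difference between the sh-Ptbp1 groups was -0.21, with an interval of -0.55 to 0.13 (limma adjusted p = 0.274). To sh-Luci-3d it was -0.20 (limma adjusted p = 0.305), and -0.39 without sh-Luci-3d replicate 3, which passed the FDR (limma adjusted p = 0.00997). With sh-Ptbp1-3d replicate 3 left out as well, the same difference did not (limma adjusted p = 0.0156). CAMK2G, the gamma subunit, was at 13.4, 12.0 and 14.1 FPKM, then at 15.1, 14.6 and 13.4 FPKM and then at 15.5, 15.6 and 15.3 FPKM in the same order of groups. Its sh-Ptbp1-7d values were the highest of the 9, by a log2 difference of 0.10 to sh-Ptbp1-3d with an interval of -0.09 to 0.30 (limma adjusted p = 0.345) and of 0.24 to sh-Luci-3d (limma adjusted p = 0.0442, above the threshold of 0.01).

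Summed over the 4 subunit genes, the level was 32.9 ± 3.53 FPKM in sh-Luci-3d, 34.2 ± 0.985 in those of sh-Ptbp1-3d and 34.5 ± 2.28 in those of sh-Ptbp1-7d (SD, n = 3 each). CAMK2D and CAMK2G made up nearly all of it at 3 dpi. The share of CAMK2B was 0% to 0.10% in sh-Luci-3d, 0.12% to 1.28% in sh-Ptbp1-3d and 5.51% to 6.43% in sh-Ptbp1-7d, and the share of CAMK2D was 51.22% to 66.41%, 56.39% to 57.99% and 46.11% to 51.04% in the same order. The CAMK2D share of 51.22% was that of sh-Luci-3d replicate 3. The other 2 sh-Luci-3d libraries, at 60.66% and 66.41%, lay above all of sh-Ptbp1-3d, which was not tested. At 7 dpi the delta and gamma subunits therefore still held most of the subunit FPKM in each library.

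**Figure D1:**
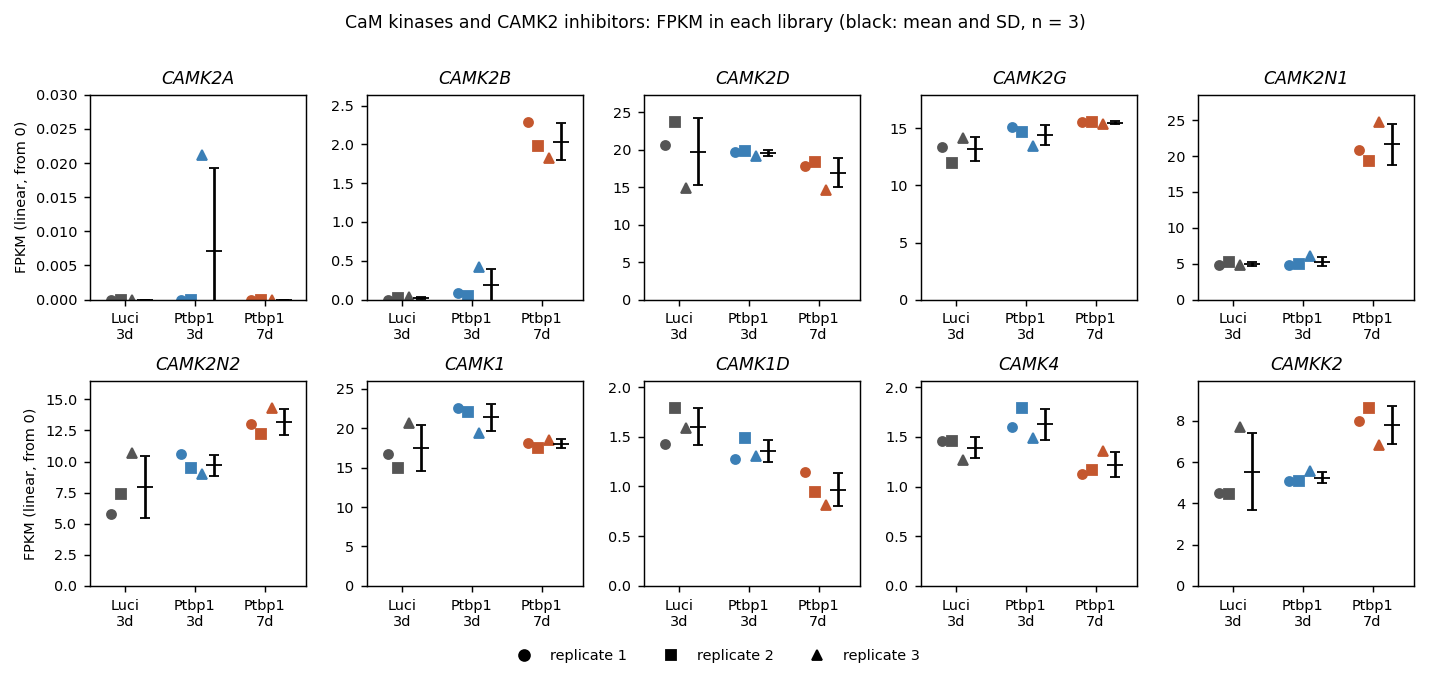
FPKM of the 10 genes in each library on linear axes that start at 0, with the scale set for each gene, marker shape for the replicate number and black bars for the mean ± SD of 3 libraries (bars that would pass below 0 are cut there). CAMK2B and CAMK2N1 in sh-Ptbp1-7d lie far above both groups of 3 dpi, and sh-Ptbp1-3d replicate 3 holds the highest CAMK2B value of 3 dpi, 0.423 FPKM.

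Of the inhibitors of CaM kinase II, CAMK2N1 rose by about 4-fold at 7 dpi, and CAMK2N2 was not called with all libraries in the fit. CAMK2N1 is encoded on chromosome 1 (20482391 to 20486220). It was at 4.87, 5.22 and 4.82 FPKM in sh-Luci-3d, at 4.89, 4.95 and 6.04 in those of sh-Ptbp1-3d and at 20.9, 19.3 and 24.8 in those of sh-Ptbp1-7d. The 6 libraries of 3 dpi lay close together, and the lowest sh-Ptbp1-7d value was more than 3-fold above the highest of them. The log2 rise was 2.01 against sh-Ptbp1-3d (standard error 0.120, limma adjusted p = 3.67e-07), 2.11 without sh-Ptbp1-3d replicate 3, and 2.09 against sh-Luci-3d (standard error 0.120, limma adjusted p = 2.65e-07). Between the groups of 3 dpi it differed by 0.08, with an interval of -0.18 to 0.35 (limma adjusted p = 0.905), and by -0.01 without sh-Ptbp1-3d replicate 3.

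CAMK2N2 is encoded on chromosome 3 (184259213 to 184261463). It was at 5.76, 7.39 and 10.7 FPKM in sh-Luci-3d, at 10.6, 9.51 and 8.97 in those of sh-Ptbp1-3d and at 13.0, 12.2 and 14.3 in those of sh-Ptbp1-7d. The sh-Ptbp1-7d libraries were above all others, and sh-Luci-3d replicate 3 lay with the sh-Ptbp1-3d libraries. The log2 difference of 0.44 to sh-Ptbp1-3d did not pass (interval 0.03 to 0.85, limma adjusted p = 0.0684). That of 0.77 to sh-Luci-3d passed the FDR but not the fold (standard error 0.184, limma adjusted p = 0.00525). Without sh-Luci-3d replicate 3 the latter was 1.002, and CAMK2N2 was then called (limma adjusted p = 0.000113). Between the groups of 3 dpi its difference of 0.33 (limma adjusted p = 0.751) became 0.56 without that library, which passed the FDR of 0.05 (limma adjusted p = 0.0324). The difference between the rises of the 2 inhibitors was not tested.

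The summed FPKM of the 2 inhibitors was 0.312 to 0.534 times that of the 4 subunits in sh-Luci-3d, 0.418 to 0.454 times in sh-Ptbp1-3d and 0.877 to 1.229 times in sh-Ptbp1-7d. The value of 0.534 was that of sh-Luci-3d replicate 3. The other 2 sh-Luci-3d libraries, at 0.312 and 0.352, lay below all of sh-Ptbp1-3d, a difference that was not tested. CAMK2N1 was the lesser part of the inhibitor sum at 3 dpi, 31.12% to 45.82%, and the larger at 7 dpi, 61.17% to 63.41%. Its lowest share was that of sh-Luci-3d replicate 3, and the other 2 libraries of that group were at 45.82% and 41.39%. These are ratios of mRNA per length and carry no information on the amount of protein or on kinase activity.

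None of the CaM kinase I and IV genes was called in any comparison. All 3 were lower in every sh-Ptbp1-7d library than in every sh-Ptbp1-3d library, as were 27.0% of all genes tested. CAMK1, on average the highest of the 10 genes (18.9 FPKM over 9 libraries, followed by CAMK2D with 18.8), was at 16.7, 14.9 and 20.7 FPKM in sh-Luci-3d, at 22.6, 22.1 and 19.4 in those of sh-Ptbp1-3d and at 18.1, 17.4 and 18.6 in those of sh-Ptbp1-7d. Its sh-Luci-3d libraries overlapped with both other groups. The log2 difference was -0.24 between the sh-Ptbp1 groups (interval -0.50 to 0.02, limma adjusted p = 0.108) and 0.30 between the groups of 3 dpi (interval 0.05 to 0.56, limma adjusted p = 0.623). The latter passed the FDR without sh-Luci-3d replicate 3, at 0.43 (limma adjusted p = 0.0232).

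CAMK1D, a CaM kinase I isoform, was at 1.42, 1.79 and 1.59 FPKM in sh-Luci-3d, at 1.28, 1.48 and 1.31 in those of sh-Ptbp1-3d and at 1.14, 0.949 and 0.815 in those of sh-Ptbp1-7d. The sh-Ptbp1-7d libraries were the lowest 3 of the 9. The log2 difference to sh-Luci-3d, -0.68, passed the FDR but not the fold (standard error 0.171, limma adjusted p = 0.00715), and did not pass without sh-Luci-3d replicate 3 (0.0142) or without sh-Ptbp1-3d replicate 3 (limma adjusted p = 0.0113). To sh-Ptbp1-3d it was -0.46, with an interval of -0.83 to -0.08 (limma adjusted p = 0.0456, above 0.01). CAMK4, a mainly nuclear kinase known from neurons and T cells, was at 1.46, 1.45 and 1.27 FPKM in sh-Luci-3d, at 1.60, 1.79 and 1.49 in those of sh-Ptbp1-3d and at 1.13, 1.17 and 1.36 in those of sh-Ptbp1-7d. The sh-Ptbp1-3d values were the highest 3. Its log2 difference between the sh-Ptbp1 groups was -0.39, with an interval of -0.73 to -0.05 (limma adjusted p = 0.0536).

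CAMKK2, which phosphorylates CaM kinase I and IV and also AMPK, was at 4.50, 4.43 and 7.69 FPKM in sh-Luci-3d, at 5.10, 5.07 and 5.56 in those of sh-Ptbp1-3d and at 7.97, 8.63 and 6.80 in those of sh-Ptbp1-7d. All libraries of 3 dpi were below those of 7 dpi except sh-Luci-3d replicate 3, whose value lay within the range of sh-Ptbp1-7d. The log2 difference of 0.56 between the sh-Ptbp1 groups did not pass 0.01 (interval 0.14 to 0.98, limma adjusted p = 0.0312). Fitted without sh-Luci-3d replicate 3, which enters this comparison only through the shared spread, the same difference had a limma adjusted p of 0.00112, still below the fold of 2. Against sh-Luci-3d the difference was 0.53 (limma adjusted p = 0.0399) and 0.78 without that library (limma adjusted p = 0.000301).

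In the comparison of sh-Ptbp1-7d with sh-Ptbp1-3d, 2 of the 9 tested members were called higher and 0 lower, where 8.31% of all genes were called higher and 5.90% lower. Without the fold, 2 members passed the FDR, and 35.8% of all genes did. Against sh-Luci-3d, 2 members were again called higher and 0 lower (8.93% and 5.68% of all genes), and 4 passed the FDR without the fold (35.6% of all genes). Between the groups of 3 dpi, 0 members passed in limma, with or without the fold, and 0.0129% of all genes were called. At an unadjusted p under 0.05 there were 2 members, CAMK2B and CAMK1, and 1126 of all genes. Without sh-Luci-3d replicate 3, 6.37% of all genes passed the FDR of that comparison, CAMK1 and CAMK2N2 among them. In the other comparisons the number of members past the FDR without the fold also moved with the libraries. With sh-Luci-3d replicate 3 left out 4 passed between the sh-Ptbp1 groups in place of 2, with CAMK2N2 (limma adjusted p = 0.00734) and CAMKK2 added. Relative to sh-Luci-3d 5 passed in place of 4, with CAMK2D and CAMKK2 added and CAMK1D lost. Without sh-Ptbp1-3d replicate 3 the counts were 2 and 3, CAMK1D again being lost. With both libraries left out they were 4 and 4, and CAMK1 (limma adjusted p = 0.00796) stood in place of CAMK2N2 between the sh-Ptbp1 groups. The shares of all genes for these counts are not given here, so the counts were not read as a result about the members.

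The libraries of the sh-Ptbp1 groups did not overlap for any of the 9 tested members, with 5 higher and 4 lower at 7 dpi. Over all genes 62.3% did not overlap, 35.3% higher and 27.0% lower. After scaling to TPM, CAMK2D overlapped, and after median-ratio scaling CAMK2G did, so the separation of these 2 genes depends on the scaling. In sh-Ptbp1-7d relative to sh-Luci-3d, 4 members were higher and 1 lower without overlap (32.8% and 23.1% of all genes), and between the groups of 3 dpi 2 members, CAMK2B and CAMK4, did not overlap (10.8% of all genes). The median log2 difference of the 9 members was 0.10 between the sh-Ptbp1 groups, against 0.09 over all genes, and 0.13 against 0.01 between the groups of 3 dpi. The first and second of these comparisons share the sh-Ptbp1-3d libraries.

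**Figure D2:**
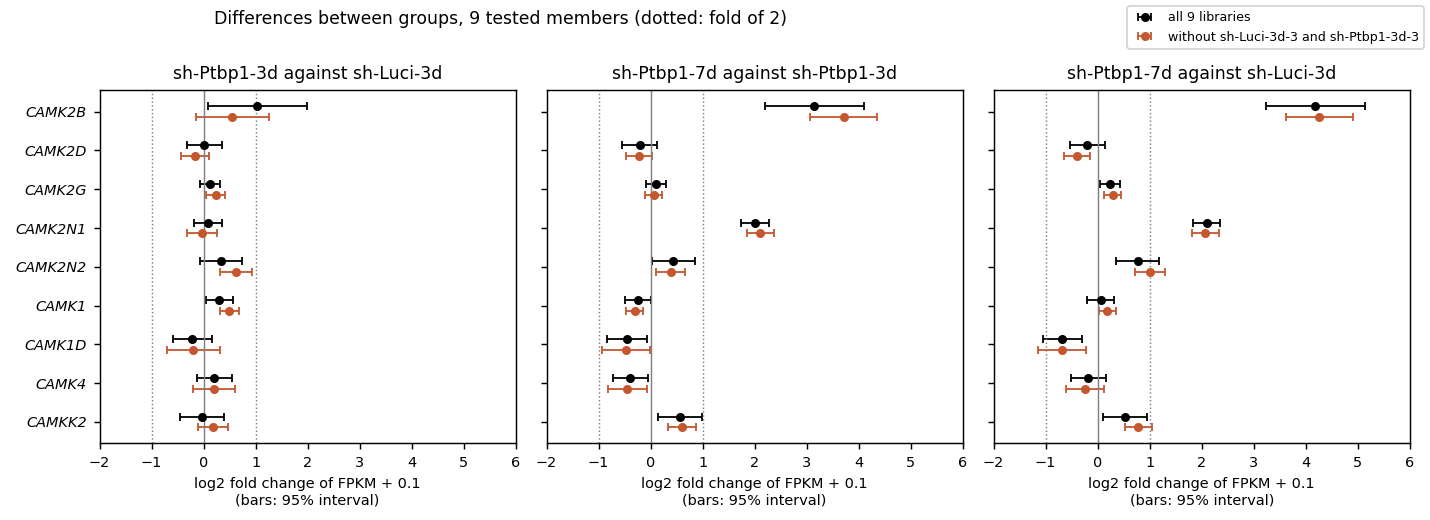
Log2 differences of FPKM + 0.1 for the 9 tested genes in 3 comparisons, with 95% intervals from limma, for all 9 libraries (black) and without sh-Luci-3d-3 and sh-Ptbp1-3d-3 (orange). The intervals of CAMK2B and CAMK2N1 lie above a fold of 2 (dotted line) in both comparisons with sh-Ptbp1-7d, and those of the other 7 genes do not.

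The order of the levels changed at its upper end and, with CAMK2B, also near its lower end. In sh-Luci-3d the order by mean was CAMK2D (19.8 FPKM), CAMK1 (17.4), CAMK2G (13.2), CAMK2N2 (7.93), CAMKK2 (5.54), CAMK2N1 (4.97), CAMK1D (1.60), CAMK4 (1.39), CAMK2B (0.0177) and CAMK2A, listed at 0. The libraries overlapped between CAMK2D and CAMK1, between CAMK2N2 and CAMKK2, between CAMKK2 and CAMK2N1 and between CAMK1D and CAMK4, and CAMK2B was listed at 0 in 1 library. In sh-Ptbp1-7d it was CAMK2N1 (21.7 FPKM), CAMK1 (18.0), CAMK2D (16.9), CAMK2G (15.5), CAMK2N2 (13.2), CAMKK2 (7.80), CAMK2B (2.03), CAMK4 (1.22), CAMK1D (0.969) and CAMK2A. CAMK2N1 went from the sixth place to the first, and its 3 libraries lay above those of CAMK1. CAMK2B passed CAMK4 and CAMK1D, with no overlap. CAMK1 and CAMK2D overlapped, CAMK2D and CAMK2G as well, and so did CAMK4 and CAMK1D.

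Over the 9 libraries, the genes averaging at least 1 FPKM whose log2 values followed CAMK2B most closely were DNAJB5 (Pearson r = 0.996), a heat shock protein of the DNAJ family, CORO2B (0.993), an actin-binding coronin, and TMEM59L (0.989). DNAJB5 went from means of 3.53 and 4.38 FPKM at 3 dpi to 8.11 FPKM at 7 dpi, CORO2B reached 3.38 FPKM at 7 dpi, and TMEM59L from 1.95 and 2.73 to 13.5 FPKM. Those closest to CAMK1, the member with the highest mean, were FGFRL1 (0.978), PPP2R1A (0.973) and PTGES2 (0.965), each highest on average in sh-Ptbp1-3d. The 9 points fall into 3 groups, share library scaling and were searched over all such genes, so these values describe likeness only.

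The wider calcium and calmodulin pathway was examined in 61 listed genes in 8 groups, of which 50 passed the filter. Between the sh-Ptbp1 groups 5 were called higher and 8 lower, against 8.31% and 5.90% of all genes, and the median log2 difference was -0.11 against 0.09 over all genes. Between the groups of 3 dpi limma called 0 (0.0129% of all genes). At an unadjusted p under 0.05 there were 3, and 1126 of all 15551 genes. Against sh-Luci-3d 5 were called higher and 7 lower (8.93% and 5.68% of all genes).

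Of the calmodulin genes, CALM2 was lower by 0.41 on the log2 scale (limma adjusted p = 0.00301), under the fold of 2, and CALM3 differed by 0.02 (limma adjusted p = 0.875). Of the 5 tested genes of this group, NRGN and GAP43 were called. Both encode neuronal proteins that bind calmodulin at low calcium. NRGN fell from 13.2 ± 1.85 to 3.17 ± 0.761 FPKM (SD, n = 3 each), a log2 change of -2.04 (limma adjusted p = 8.10e-06). GAP43 changed by -2.34 (limma adjusted p = 0.00423), or by -1.61 without sh-Ptbp1-3d replicate 3, where it stood at 3.88 FPKM against 0.602 and 0.987 FPKM in the other 2.

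Among 12 tested kinases of related type, DCLK2 was called higher and CAMKK1, MYLK and DCLK1 lower. CAMKK1, the second CaM kinase kinase, fell from 1.67 ± 0.130 to 0.239 ± 0.0627 FPKM (SD, n = 3 each), a log2 change of -2.40 (standard error 0.198, limma adjusted p = 3.74e-06), while CAMKK2 did not pass. The CaM kinase kinases were thus at 1.67 and 5.24 FPKM in sh-Ptbp1-3d and at 0.239 and 7.80 FPKM in sh-Ptbp1-7d. The doublecortin-like kinases, microtubule-binding proteins with a kinase domain like that of CaM kinases, went opposite ways. DCLK1 fell from 12.2 ± 1.03 to 1.79 ± 0.388 FPKM (-2.73 on the log2 scale, limma adjusted p = 3.49e-07) and DCLK2 rose from 4.99 ± 0.207 to 13.9 ± 0.401 FPKM (1.46, limma adjusted p = 5.37e-07; SD, n = 3 each). MYLK, the myosin light chain kinase, changed by -1.75 (limma adjusted p = 6.49e-05). CAMKV, a kinase-like protein without activity, was at 2.47 FPKM in sh-Ptbp1-3d replicate 3 and listed at 0 in the other 8 libraries.

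In the calcineurin group, which holds the calmodulin-activated phosphatase and its regulators, 1 of 9 genes was called higher and 2 lower. RCAN1, a feedback inhibitor of calcineurin, rose from 5.11 ± 0.418 to 19.1 ± 0.892 FPKM (SD, n = 3 each; 1.89 on the log2 scale, limma adjusted p = 1.44e-07), and its paralogs RCAN2 and RCAN3 fell by 1.01 and 1.21 on that scale (limma adjusted p = 0.00598 and 3.02e-05). The phosphatases of CaM kinases, PPM1E and PPM1F, were lower by 0.90 and 0.63 (limma adjusted p = 0.00342 and 0.00109), under the fold of 2. Of the 6 AMPK subunit genes, substrates of CAMKK2 among them, PRKAG2 alone was called, at -1.26 (limma adjusted p = 5.64e-06). In the group of CREB and its coactivators 1 of 6 was called, CRTC3 with 1.09 (limma adjusted p = 4.26e-05). Without sh-Ptbp1-3d replicate 3 its change was 1.0 (limma adjusted p = 0.000288), which lies at the fold of 2.

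Of the 8 tested postsynaptic partners and substrates of CaM kinase II 2 were called, both higher. DLG4, which encodes the scaffold PSD-95, rose from 9.93 ± 1.33 to 23.8 ± 3.03 FPKM (SD, n = 3 each), by 1.26 on the log2 scale (limma adjusted p = 2.57e-05). SHANK3, another scaffold, rose from 1.29 ± 0.0272 to 3.24 ± 0.174 FPKM, likewise by 1.26 (limma adjusted p = 0.000237). ACTN4 and ACTN1, actinins of the cytoskeleton, were lower by 0.80 and 0.36. The 2 tested calmodulin-regulated cyclases and phosphodiesterases, ADCY3 and PDE1C, were lower by 0.46 and 0.90, under the fold of 2.

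**Figure D3:**
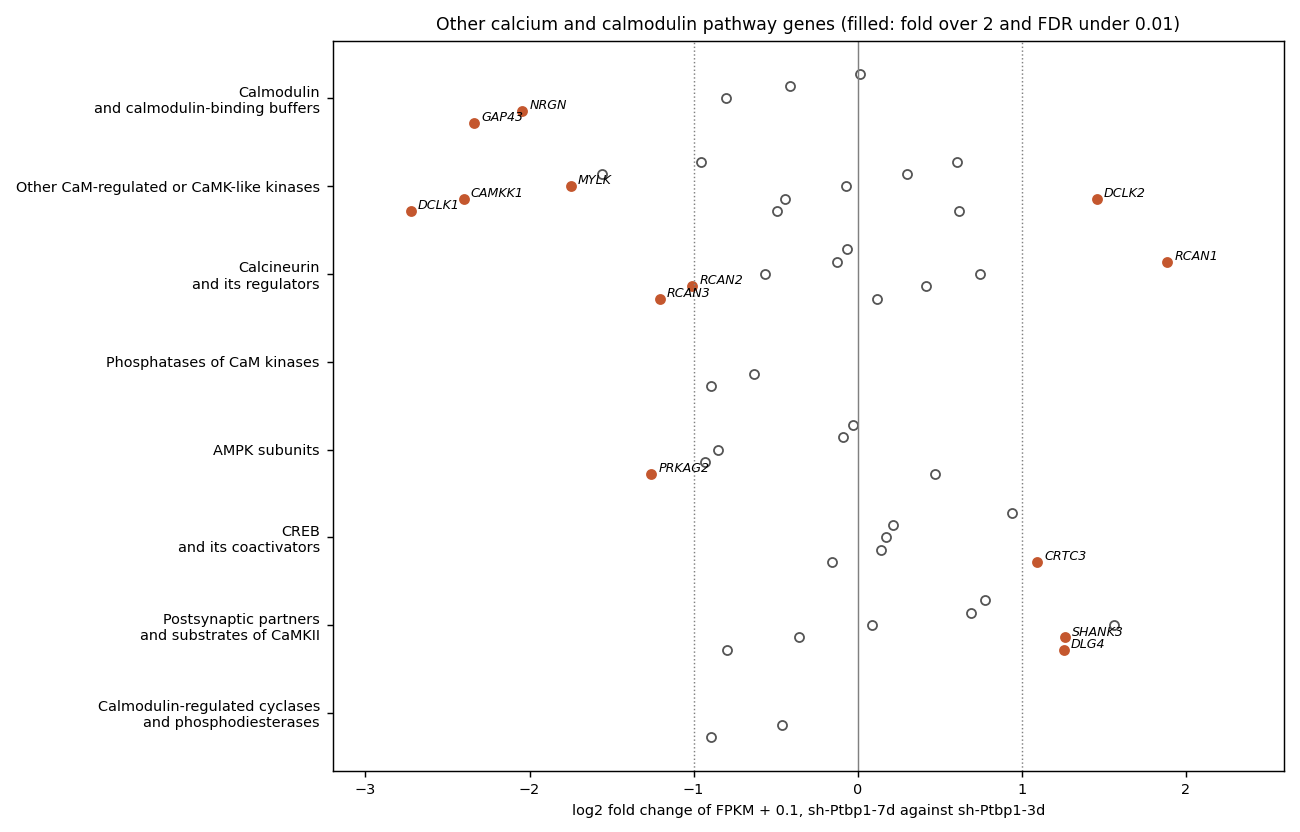
Log2 differences of FPKM + 0.1 between the sh-Ptbp1 groups (7 dpi relative to 3 dpi) for the 50 tested pathway genes in 8 groups, 1 point per gene with vertical offsets for legibility. The 13 filled points are the called genes, 5 to the right and 8 to the left, from DCLK1 at -2.73 to RCAN1 at 1.89.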

How the data were processed

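The authors sequenced U251 RNA on Illumina HiSeq, filtered and aligned the reads, and deposited FPKM values per gene and library. The submitters' processing notes name HISAT2 and GRCh38. The authors also deposited the coordinates of loci assembled from the reads, a table of another kind of value, in which 0 loci overlap the 10 genes. The FPKM are not in whole-read steps, the depth is therefore unknown, and no counting interval is given. Gene positions are from GENCODE 29.

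The values were tested with limma 3.58.1 in R 4.3.3 with a trend, on log2(FPKM + 0.1) of the 9 libraries together, and summarised in Python 3.11.15 (pandas 2.3.3, matplotlib 3.10.9). Checked on made-up data with a log2 change of 2 between the sh-Ptbp1 groups in 200 of 15454 genes, the fit recovered 188 and called 0 unchanged genes. The changed genes were drawn from those with a mean log2(FPKM + 0.1) above 0. Genes as weak as CAMK2B were not among them, so this check does not cover such genes. The members, thresholds, 8 pathway lists and marker lists were chosen with earlier results of these data known. Named genes are the 10 members, PTBP1 and PTBP2, up to 3 rises and 3 falls per list among called genes, the 3 genes most like CAMK2B and like the highest member, and the markers. CALM2, CALM3, CAMKV, ACTN1, ACTN4, PPM1E, PPM1F, ADCY3 and PDE1C were named after their values were seen, and 1 listed gene is not reported here. Alternatives were other pseudocounts, filters and scalings, no trend, the 2 groups alone, a replicate block and leaving out each library. Leaving out sh-Luci-3d-3 and sh-Ptbp1-3d-3 together was chosen after seeing the data.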

Additional observations from a re-analysis of the deposited data

How the results depend on the processing

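Of 537 values of single genes under 20 alternatives (27 genes and comparisons), 525 kept their direction and side of the thresholds, 2 newly passed (CAMK2N2 in sh-Ptbp1-7d relative to sh-Luci-3d, 1.002 without sh-Luci-3d replicate 3 and with both doubtful libraries left out) and 10 turned direction, all of them differences that had not passed. With a mean of at least 1 FPKM required, CAMK2B was not tested and 1 member was called in place of 2 in each comparison with sh-Ptbp1-7d. Between the groups of 3 dpi, the log2 difference of CAMK2D was -0.008 with TPM, -0.016 after quantile normalization, and -0.178 to 0.159 when each library was left out. That of CAMK2N1 was -0.013 to 0.137 and that of CAMKK2 -0.166 to 0.225 when each library was left out. Leaving out both sh-Luci-3d-3 and sh-Ptbp1-3d-3, chosen after seeing the data, gave -0.163 for CAMK2D, -0.035 for CAMK2N1 and 0.183 for CAMKK2. In sh-Ptbp1-7d relative to sh-Luci-3d, CAMK1 was at -0.039 after median-ratio scaling and at -0.045 to 0.189 when each library was left out. The cause of these turns was not tested.

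The replicate numbers did not pair the libraries (correlations of deviations of same-numbered libraries from -0.019 to 0.058). With the number as a replicate block, 0, 2 and 2 members and 13 pathway genes were called, as without it. The pathway count of 13 was 9 to 15 over all alternatives. TPM moved the median log2 difference of all genes from 0.09 to 0.20 between the sh-Ptbp1 groups. With a pseudocount of 1, 1255 of all genes were called there in place of 2211 and 1269 against sh-Luci-3d in place of 2271. Without sh-Luci-3d replicate 3, 59 of all genes were called between the groups of 3 dpi in place of 2. With both libraries out there were 43, and 0 to 2 under the other alternatives. The depth is unknown, which limits what can be said of CAMK2A and of CAMK2B at 3 dpi. The log2 difference of CAMK2B between the groups of 3 dpi was 0.20 to 2.44 over the alternatives.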
